A study of Mus musculus with 6 samples.

Results

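A set of 10 genes of BMP, ALK1 and endoglin signalling was followed in RNA-Seq of isolated lung ECs (iLECs). In all, 24972 gene symbols were measured. The 10 genes were chosen by name, with earlier results of these data known. They are the ligands *Bmp2*, *Bmp4* and *Bmp6*, the extracellular modulator *Bmper*, the receptors *Acvrl1* (which encodes ALK1), *Eng* (endoglin) and *Bmpr2*, and the targets and feedback genes *Id1*, *Id3* and *Smad6*. All 10 passed the filter on low values. The iLECs were taken from digested lungs at P7 with beads coated in an antibody against CD31, an endothelial surface protein. There were 3 control and 3 Atp6ap2 iECKO samples. Genotypes are given as labelled, and values below go against fl/Y in 4 libraries. The control genotype was labelled Atp6ap2 fl/Y, without Cre. The mutant genotype was Atp6ap2 fl/Y; Cdh5-CreERT2+, in which the promoter of *Cdh5*, the VE-cadherin gene, drives a recombinase in ECs that tamoxifen switches on. Both groups carried the floxed allele and both had been given 100 µg of tamoxifen on P1 to P3, so Cre itself and loss of *Atp6ap2* cannot be told apart here. The labels give C57BL/6 for all 6 samples, whereas the study's methods give a mixed CD1 and C57BL/6 background. The comparison asked which transcripts differ in ECs after postnatal loss of *Atp6ap2*, the gene of the (pro)renin receptor.

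BMPs are secreted ligands of the TGF-β family. They bring type I and type II receptor kinases together, the type I receptor phosphorylates SMAD1, SMAD5 and SMAD9, and these enter the nucleus with SMAD4 and act on genes such as the *Id* genes. In ECs the main type I receptor for circulating BMP9 and BMP10 is ALK1, which works with BMPR2 and with endoglin, a co-receptor. Loss of ALK1 or endoglin function causes hereditary hemorrhagic telangiectasia, and mutations in *BMPR2* cause pulmonary arterial hypertension. BMPER binds BMPs outside the cell and can dampen or raise their activity, and SMAD6 and SMAD7 are inhibitory SMADs that BMP signalling itself induces.

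The stretch of 250 bases before the start site was read for the genes whose promoter was in the RefSeq table (GRCm38.p6), which held 7 of the 10 and not *Bmp2*, *Acvrl1* or *Id1*. It was searched for the palindrome GGCGCC, a motif bound by SMAD1 and SMAD5, and for CAGAC, a SMAD box, on both strands (GTCTG on the other). No match of one motif overlapped another in the stretches printed. Below are the promoters of both genes that fell, *Bmper* and *Bmp4*, with those of *Smad6*, a feedback gene, and *Eng*, a receptor, neither of which passed the test. They are printed 5′ to 3′ on the strand of the gene and motif matches are in capitals. The *Bmper* stretch lies at chr9:23222826-23223075 on the plus strand, that of *Bmp4* at chr14:46390670-46390919 on the minus strand, that of *Smad6* at chr9:64022060-64022309 on the minus strand, and that of *Eng* at chr2:32646345-32646594 on the plus strand. No annotated exon lies in any of the 4.
Bmper: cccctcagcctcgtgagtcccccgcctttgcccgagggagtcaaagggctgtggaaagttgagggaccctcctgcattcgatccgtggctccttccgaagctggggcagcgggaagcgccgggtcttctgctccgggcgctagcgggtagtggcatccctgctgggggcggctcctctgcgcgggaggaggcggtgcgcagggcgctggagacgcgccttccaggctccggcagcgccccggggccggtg
Bmp4: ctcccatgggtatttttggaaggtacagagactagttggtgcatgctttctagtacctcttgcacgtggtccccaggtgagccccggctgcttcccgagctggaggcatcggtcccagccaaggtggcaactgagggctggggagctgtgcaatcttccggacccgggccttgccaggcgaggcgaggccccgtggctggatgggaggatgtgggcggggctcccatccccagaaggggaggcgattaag
Smad6: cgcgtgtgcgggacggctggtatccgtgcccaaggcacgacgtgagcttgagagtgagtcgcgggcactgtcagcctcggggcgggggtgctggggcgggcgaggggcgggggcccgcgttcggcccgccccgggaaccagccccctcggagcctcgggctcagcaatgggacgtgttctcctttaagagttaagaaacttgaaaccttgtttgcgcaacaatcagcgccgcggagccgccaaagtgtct
Eng: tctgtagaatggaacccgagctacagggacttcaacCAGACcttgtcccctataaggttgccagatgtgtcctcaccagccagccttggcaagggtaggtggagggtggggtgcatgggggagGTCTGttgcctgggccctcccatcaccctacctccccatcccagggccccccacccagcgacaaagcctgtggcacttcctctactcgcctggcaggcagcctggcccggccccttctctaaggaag
The stretches of *Bmper*, *Bmp4* and *Smad6* held neither motif. That of *Eng* held CAGAC 214 bases and, on the other strand, GTCTG 127 bases before the start. Of the other 3, *Bmpr2* held GGCGCC once, *Id3* held the SMAD box at 167 and 68 bases and *Bmp6* held it at 119 bases before the start, and these stretches overlap an annotated exon of the same gene. Over all 32851 promoters in the table, 9.59% held GGCGCC and 42.2% held the SMAD box in the same stretch. GC content was 71.6% for *Bmper* and 63.2% for *Bmp4*, with a median of 52.4% over all promoters.

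The deleted gene was lower in the mutants. *Atp6ap2* (chromosome X, 12587801 to 12617049) had normalized counts of 7490.2, 5815 and 5681 in controls 1 to 3 and of 4220, 2336 and 1982 in mutants 1 to 3, with no overlap (log2 fold change -1.22, SE 0.26, adjusted *P* = 0.0306). Mutant 1 kept the most *Atp6ap2*. *Pecam1*, which encodes CD31, and *Cdh5* had log2 fold changes of 0.12 (adjusted *P* = 0.599) and 0.07 (adjusted *P* = 0.853), and all 30 endothelial markers were detected. *Xist*, the RNA that silences an X chromosome in females, was between 37704 and 47487 in 4 libraries (controls 1 and 2, mutants 1 and 3), against their fl/Y label, and 31.7 and 19.3 in control 3 and mutant 2. Values without the libraries low in *Xist* are therefore given below. Normalized totals ranged from 26243878 to 28725799, and the smallest steps between low values put sequencing depth at 1.00 to 1.04 in controls and 1.25 to 1.55 in mutants, relative to the shallowest library. The labels do not say whether a sample was 1 animal, and *P* values measure the spread among these samples.

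Of the 10 genes, *Bmper* and *Bmp4* fell, none rose and 8 did not pass the threshold (limma, Benjamini-Hochberg adjustment over all genes tested, 0.05). No gene of the 10 was higher at an unadjusted *P* below 0.05 and 3 were lower, where 11.6% of all genes tested were higher and 12.3% lower. Among all 14456 genes tested, 8.25% passed in either direction and 4.97% were lower. The median log2 fold change of the 10 was -0.19, and that of all genes tested was 0.0049. In 3 of the 10, *Bmper*, *Bmp4* and *Bmp6*, every mutant sample lay below every control sample, against 15.0% of all genes tested. Neither receptors nor targets supplied any of these.

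**Figure D1:**
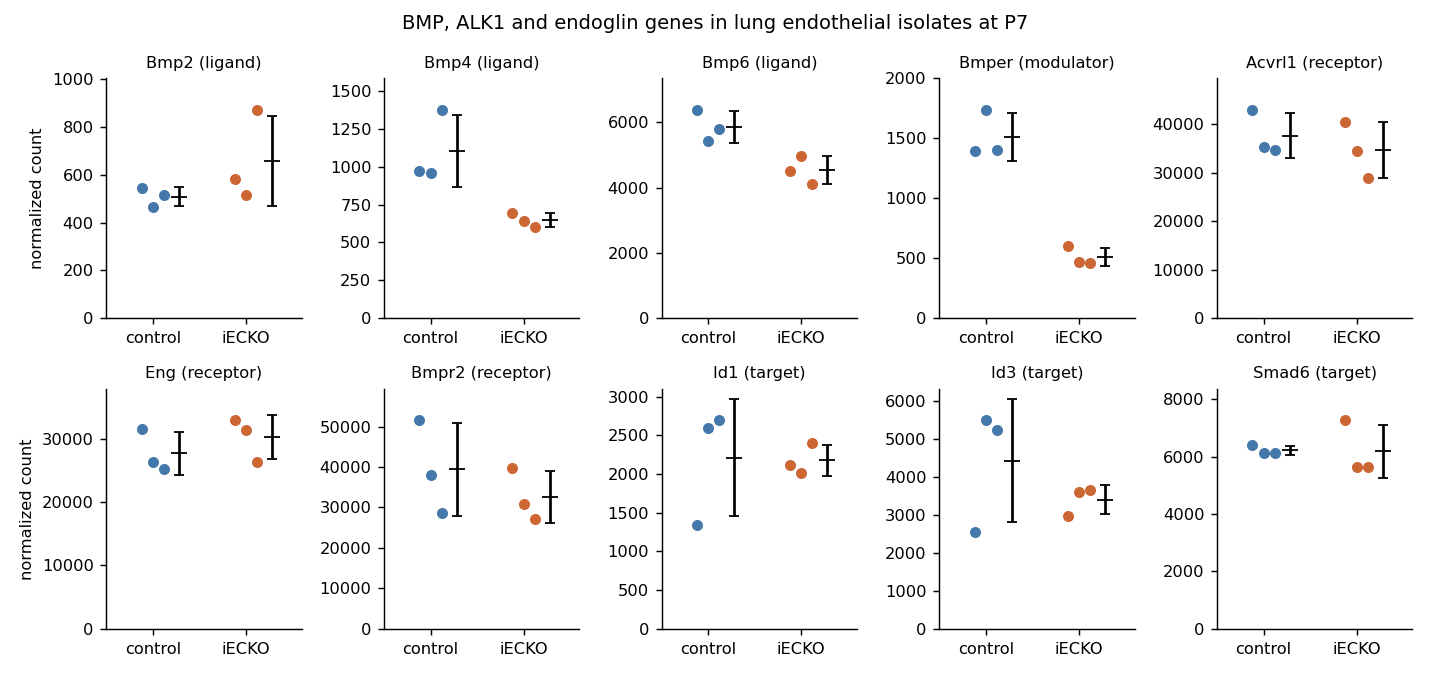
Normalized count of each of the 10 genes in each sample, 1 panel a gene, with its own axis from 0. Points are samples, in the order of replicates 1 to 3, and the bar beside them is the mean with its SD (n = 3). Only the panels of *Bmper*, *Bmp4* and *Bmp6* show groups that do not overlap.

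*Bmper* (chromosome 9, 23223076 to 23485200) had the largest fall of the 10. Normalized counts were 1392, 1739.6 and 1400.5 in controls 1 to 3 and 599, 469 and 460.3 in mutants 1 to 3. Every mutant lay far below every control. The mean went from 1511 ± 198 to 509 ± 77.7 (SD, n = 3 each), and the fitted value fell by 66.3% (log2 fold change -1.57, SE 0.14, 95% CI -1.90 to -1.24, adjusted *P* = 0.00558). The exact two-sided permutation test over samples gave *P* = 0.1, the smallest that 3 against 3 allows. The fall passed the threshold whichever sample was left out, with log2 fold changes from -1.69 to -1.46.

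*Bmp4* (chromosome 14, 46383520 to 46390669), a ligand for the type I receptors BMPR1A and BMPR1B, also fell. Normalized counts were 972, 957 and 1377 in controls 1 to 3 and 697, 645 and 604 in mutants 1 to 3. The controls were spread more widely than the mutants, with control 3 above the other 2, and the groups did not overlap. The mean went from 1102 ± 238 to 648 ± 46.7 (SD, n = 3 each; log2 fold change -0.75, SE 0.15, 95% CI -1.10 to -0.39, adjusted *P* = 0.0281; exact permutation *P* = 0.1). The change kept its sign but missed the threshold without control 3 (log2 fold change -0.57, adjusted *P* = 0.0555), without mutant 2 (adjusted *P* = 0.0927) and without mutant 3 (adjusted *P* = 0.107). Exons of *Gm15217* on the opposite strand overlap those of *Bmp4*, and the library kit does not keep strand, so reads of the pair cannot be told apart.

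In the 4 libraries high in *Xist*, 2 a group, log2 fold changes were -1.57 for *Bmper* (adjusted *P* = 0.121) and -0.57 for *Bmp4* (adjusted *P* = 0.179). In that fit limma called 0 of 14094 genes, against 2196 at an unadjusted *P* below 0.05. With the presence of *Xist* as a covariate in all 6 libraries, adjusted *P* was 0.00988 for *Bmper* and 0.0303 for *Bmp4*.

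*Bmp6* (chromosome 13, 38345107 to 38500302), the most abundant of the 3 ligands and in the liver the signal by which ECs raise hepcidin, did not pass. Normalized counts were 6392, 5427.5 and 5795 in controls 1 to 3 and 4513, 4968 and 4117 in mutants 1 to 3. All mutants lay below all controls, by a smaller step than for the other 2 genes (log2 fold change -0.37, SE 0.10, 95% CI -0.60 to -0.15, adjusted *P* = 0.0589; exact permutation *P* = 0.1). It stayed above the threshold under all 18 alternative settings, with adjusted *P* from 0.0501 to 0.214. Exons of *Txndc5* on the opposite strand overlap those of *Bmp6*.

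*Bmp2* (chromosome 2, 133552159 to 133562885), a close relative of *Bmp4*, had the highest log2 fold change of the 10 without passing. Normalized counts were 544, 466 and 517 in controls 1 to 3 and 582, 517 and 872 in mutants 1 to 3. Mutant 3 alone stood well above the controls and the groups overlapped (log2 fold change 0.33, SE 0.19, 95% CI -0.11 to 0.78, adjusted *P* = 0.348; exact permutation *P* = 0.2).

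Ratios between genes, each count first divided by the summed exon length in kilobases, were examined after the values above had been seen and are given as a description. *Bmper* stood at 1.88, 2.74 and 1.99 times *Bmp2* in controls 1 to 3 and at 0.757, 0.666 and 0.388 times in mutants 1 to 3, so the order of the pair was the opposite in the mutants. *Bmp4* stood at 3.43 ± 0.712 times *Bmp2* in controls and 1.65 ± 0.485 times in mutants (SD, n = 3 each), without overlap. *Bmper* per *Bmp4* was 0.666, 0.846 and 0.473 in controls and 0.400, 0.338 and 0.355 in mutants, which did not overlap either. *Bmp6* per *Bmp4* overlapped, at 3.16 ± 0.689 and 4.04 ± 0.367.

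None of the 3 receptors passed the threshold, and in each the groups overlapped. *Acvrl1* (chromosome 15, 101128522 to 101145336) had normalized counts of 43019, 35251 and 34620 in controls 1 to 3 and 40516, 34486 and 28927 in mutants 1 to 3. The difference was within the spread of either group (log2 fold change -0.13, SE 0.15, 95% CI -0.48 to 0.23, adjusted *P* = 0.673; exact permutation *P* = 0.4). *Eng* (chromosome 2, 32646595 to 32682669) had 31509, 26315 and 25163 in controls 1 to 3 and 32862, 31423 and 26281 in mutants 1 to 3. Mutants 1 and 2 stood with control 1, the highest of the controls (log2 fold change 0.13, SE 0.13, 95% CI -0.18 to 0.43, adjusted *P* = 0.616; exact permutation *P* = 0.5). *Bmpr2* (chromosome 1, 59763400 to 59879014), the type II receptor, had 51505, 38084 and 28722 in controls 1 to 3 and 39809, 30766 and 27237 in mutants 1 to 3. Its controls differed among themselves more than the groups did, and the interval took in both a fall and a small rise (log2 fold change -0.25, SE 0.23, 95% CI -0.77 to 0.27, adjusted *P* = 0.553; exact permutation *P* = 0.5).

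The ratio of *Acvrl1* to *Eng* per kilobase, also examined after the values were seen, was steady within the controls, at 1.30, 1.27 and 1.31, and lower in the mutants, at 1.17, 1.04 and 1.04. The ranges did not overlap although neither gene passed alone. Of the ratios given in this report, only *Bmp6* per *Bmp4* overlapped, and the share over all pairs of genes was not counted. Exons of *Gm16031*, annotated as antisense, overlap *Acvrl1*, and exons of *Fpgs* on the opposite strand overlap *Eng*.

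The targets *Id1* and *Id3*, inhibitors of basic helix-loop-helix factors and standard readouts of BMP receptor activity, did not pass, and control 1 stood apart from the other controls in both. *Id1* (chromosome 2, 152736251 to 152737410) had normalized counts of 1338, 2601 and 2692.5 in controls 1 to 3 and 2111, 2017 and 2398 in mutants 1 to 3. The mutants lay between control 1 and the other 2 controls (log2 fold change 0.04, SE 0.25, 95% CI -0.53 to 0.61, adjusted *P* = 0.941; exact permutation *P* = 1). *Id3* (chromosome 4, 136143497 to 136145755) had 2563.5, 5496 and 5253 in controls 1 to 3 and 2971.5, 3605 and 3649.8 in mutants 1 to 3. Here too the mutants lay between (log2 fold change -0.31, SE 0.27, 95% CI -0.93 to 0.31, adjusted *P* = 0.545; exact permutation *P* = 0.4). Without control 1, *Id3* was lower in the mutants (log2 fold change -0.66, adjusted *P* = 0.0206) and *Id1* turned in sign without passing (log2 fold change -0.29, adjusted *P* = 0.137). That was 1 of 6 limma fits that leave out a sample. *Id3* passed in none of the others, with adjusted *P* up to 0.863.

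Some other targets of the pathway were also low in control 1 and others were not. On the log2 scale control 1 differed from the mean of controls 2 and 3 by -0.98 for *Id1*, -1.07 for *Id3*, -0.79 for *Id2*, -0.60 for *Id4* and -1.04 for *Atoh8*, a helix-loop-helix target of ALK1. The difference was smaller for *Runx2* (-0.39), *Gja4* (-0.29) and *Hey1* (-0.20), and control 1 was above the mean of the other 2 for *Gja5* (0.09), *Hey2* (0.14), *Tmem100* (0.16) and *Msx1* (0.22). The feedback genes had differences of 0.06 for *Smad6* and 0.16 for *Smad7*. Over all genes tested the median of this difference was -0.02 and the central 95% ran from -1.12 to 0.93, with 3.57% of genes at or below the value of *Id1* and 2.90% at or below that of *Id3*. In the 13 immediate early genes, which respond to tissue digestion, the difference ran from -0.80 (*Egr3*) to 0.45 (*Ier3*). Between these, *Atf3* differed by -0.78, *Egr1* by -0.52, *Fos* by -0.11 and *Jun* by 0.33. Their part in the level of the *Id* genes was not tested.

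*Smad6* (chromosome 9, 63953076 to 64022059) varied less among controls, relative to its mean, than the other genes of the set. Normalized counts were 6392, 6133 and 6116.5 in controls 1 to 3 and 7262, 5653 and 5634 in mutants 1 to 3. Mutant 1 stood above all controls and mutants 2 and 3 below them (log2 fold change -0.02, SE 0.11, 95% CI -0.27 to 0.24, adjusted *P* = 0.944; exact permutation *P* = 1). With the libraries brought to the same total the log2 fold change was 0.02. The ratio of *Id1* to *Id3* per kilobase, examined after the values were seen, was 0.806, 0.731 and 0.791 in controls and 1.10, 0.864 and 1.01 in mutants, without overlap, and unlike either gene it did not set control 1 apart.

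**Figure D2:**
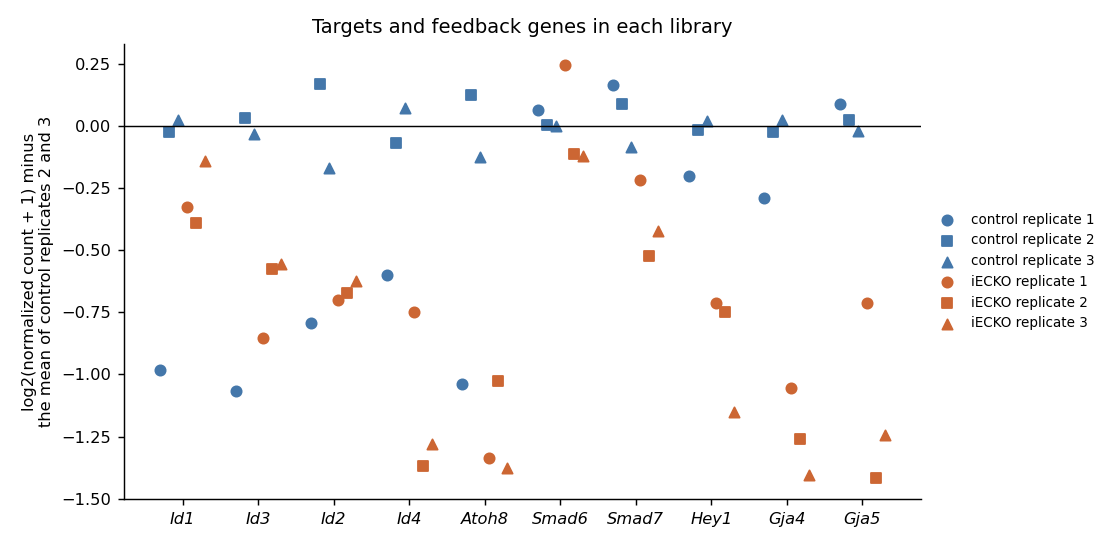
Targets and feedback genes in each of the 6 libraries, as log2(normalized count + 1) minus the mean of control replicates 2 and 3 (vertical axis). Blue marks controls, orange marks Atp6ap2 iECKO, and the marker shape gives the replicate. Control replicate 1 lies near -1 for *Id1*, *Id3* and *Atoh8* and near 0 for *Smad6*. For *Id4*, *Smad7*, *Hey1*, *Gja4* and *Gja5* all mutants lie below all controls.

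Levels were compared between genes per kilobase of exon. In controls the order of mean normalized count per kilobase was *Acvrl1* (8823), *Eng* (6834), *Id3* (2478), *Bmpr2* (2193), *Smad6* (1939), *Id1* (1905), *Bmp6* (1505), *Bmp4* (490.1), *Bmper* (313) and *Bmp2* (143). The ranges of *Acvrl1* and *Eng* did not overlap, nor did those of *Eng* and *Id3*, and neighbours from *Id3* down to *Bmp6* overlapped. From *Bmp6* on, each step lay outside the ranges of the samples. In mutants *Acvrl1* (8122.5) and *Eng* (7458) overlapped, *Smad6*, *Id3*, *Id1* and *Bmpr2* overlapped as neighbours, and the last places were *Bmp2* (185) and then *Bmper* (105), which did not overlap.

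**Figure D3:**
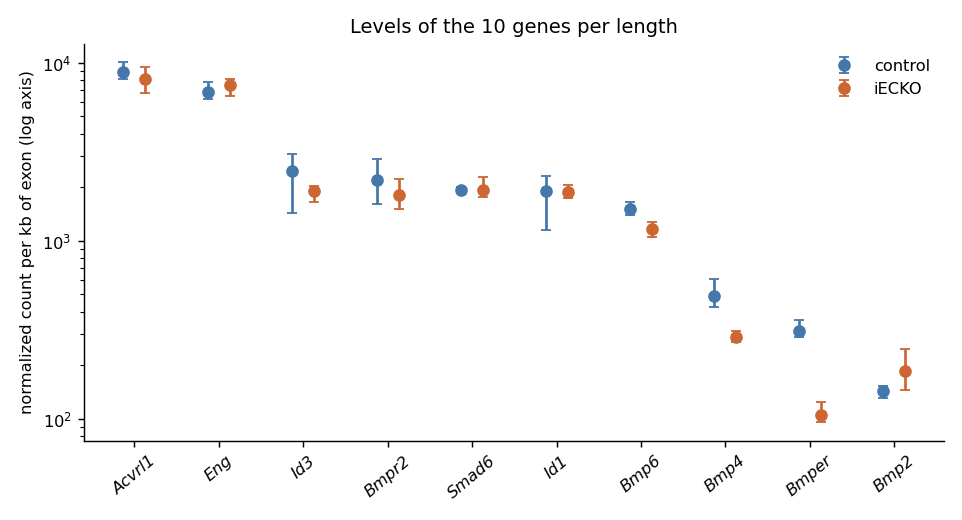
Mean normalized count per kilobase of exon of the 10 genes (log axis), ordered by the control mean, with the lowest and highest sample as bars (n = 3 a group). *Acvrl1* and *Eng* stand highest in both groups, and *Bmper* lies above *Bmp2* in controls and below it in Atp6ap2 iECKO.

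A wider list of BMP pathway genes, 68 beside the 10, was read from the same fit. Of these 67 were in the table, 50 passed the filter, 11 fell and none rose. The 11 are 22% of the 50, against 4.97% of all genes tested that were lower. This list too was chosen with earlier results of these data known, so the share is a description. At an unadjusted *P* below 0.05, 19 were lower and 1, *Fst*, was higher, against 12.3% and 11.6% of all genes tested. The median log2 fold change of the 50 was -0.36. In 17 of the 50 every mutant lay below every control, against 15.0% of all genes tested. In 1 (*Fst*) every mutant lay above every control, a pattern that was not counted over all genes. The counts by class that follow are to be read against the same 4.97%.

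Among the other ligands, *Bmp5* and *Bmp3* fell, out of 4 tested. *Bmp5*, a ligand of the BMP5 to BMP8 branch, had normalized counts of 1084.5, 1822 and 1455 in controls 1 to 3 and 512, 494 and 480.1 in mutants 1 to 3 (log2 fold change -1.52, adjusted *P* = 0.00831). *Bmp3*, which counteracts other BMPs, had a log2 fold change of -0.97 (adjusted *P* = 0.0383), which missed the threshold in 5 of the 6 fits that leave out a sample. *Gdf2*, which encodes BMP9, was listed at 4.61 in control 1 and at 0 in the other 5 libraries, and *Bmp10* was listed at 0 in all 6. The 2 ligands of highest affinity for ALK1 were thus at or near 0 in these isolates, where the receptor gene itself had the highest level per kilobase of the 10.

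Among 8 other receptors and co-receptors, *Bmpr1a* alone fell, so 12.5% of the class did. *Bmpr1a*, the type I receptor ALK3, had normalized counts of 841, 1133 and 1284 in controls 1 to 3 and 481, 502 and 476 in mutants 1 to 3 (log2 fold change -1.14, adjusted *P* = 0.0104). The groups were well apart, and the call held whichever sample was left out. *Acvr2a*, a type II receptor, had a log2 fold change of -0.04 (adjusted *P* = 0.773).

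Of 16 antagonists and modulators, 4 fell. *Kcp*, which encodes a BMP-binding protein of the chordin family, had normalized counts of 209.6, 249.9 and 259 in controls 1 to 3 and 86.1, 67.1 and 69.4 in mutants 1 to 3, the largest fall of the list (log2 fold change -1.68, adjusted *P* = 0.00831). *Twsg1* (log2 fold change -0.50, adjusted *P* = 0.0138), *Crim1* (-0.48, adjusted *P* = 0.0239) and *Fstl1* (-0.44, adjusted *P* = 0.0396), which encode further secreted or membrane-bound BMP-binding proteins, fell by less. *Twsg1* and *Crim1* passed in 3 and *Fstl1* in 1 of the 6 fits that leave out a sample.

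Of 12 genes of SMAD signalling and feedback, 1 (8.33%) fell, *Smad7* (normalized counts 4376, 4143 and 3679.8 in controls 1 to 3 and 3352, 2719 and 2909.9 in mutants 1 to 3; log2 fold change -0.44, adjusted *P* = 0.0423), and it passed in 1 of the 6 fits that leave out a sample. The receptor-regulated SMADs had small values that did not pass, with log2 fold changes of 0.18 for *Smad1* (adjusted *P* = 0.495), 0.06 for *Smad5* (adjusted *P* = 0.735) and 0.07 for *Smad9* (adjusted *P* = 0.890).

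Of 10 other targets tested, 3 fell, all of them genes of arterial ECs that Notch also regulates. *Gja4*, which encodes connexin 37, had normalized counts of 4846.5, 5837 and 6035 in controls 1 to 3 and 2856, 2478 and 2241 in mutants 1 to 3 (log2 fold change -1.14, adjusted *P* = 0.00731). *Gja5*, which encodes connexin 40, had 2142, 2050 and 1986 in controls and 1231, 755 and 851 in mutants (log2 fold change -1.15, adjusted *P* = 0.0113). *Hey1*, a Notch and ALK1 target, had 2603, 2963 and 3034.5 in controls and 1828, 1782 and 1348 in mutants (log2 fold change -0.80, adjusted *P* = 0.0142). Both connexin genes passed whichever sample was left out, and *Hey1* in 5 of 6 such fits. *Id2* (log2 fold change -0.40, adjusted *P* = 0.297), *Hey2* (-0.61, adjusted *P* = 0.155), *Atoh8* (-0.90, adjusted *P* = 0.105) and *Tmem100* (-0.08, adjusted *P* = 0.747) did not pass. *Id4* narrowly missed the threshold (log2 fold change -0.93, adjusted *P* = 0.0541). It had normalized counts of 239, 345 and 380 in controls 1 to 3 and 215, 140 and 149 in mutants 1 to 3. In *Id4* and *Hey2* every mutant lay below every control. Without control 1, adjusted *P* was 0.0228 for *Id2* and 0.0133 for *Atoh8*, and neither passed when any other sample was left out.

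Several of these genes share exonic sequence with a neighbour, namely *Bmp5* with *Gm26903*, *Bmpr1a* with *Gm17110*, *Crim1* with *Fez2*, *Kcp* with *Atp6v1fnb* and *Gm26627*, and *Gja5* with *Gpr89*, and their reads cannot be told apart where the exons meet.

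**Figure D4:**
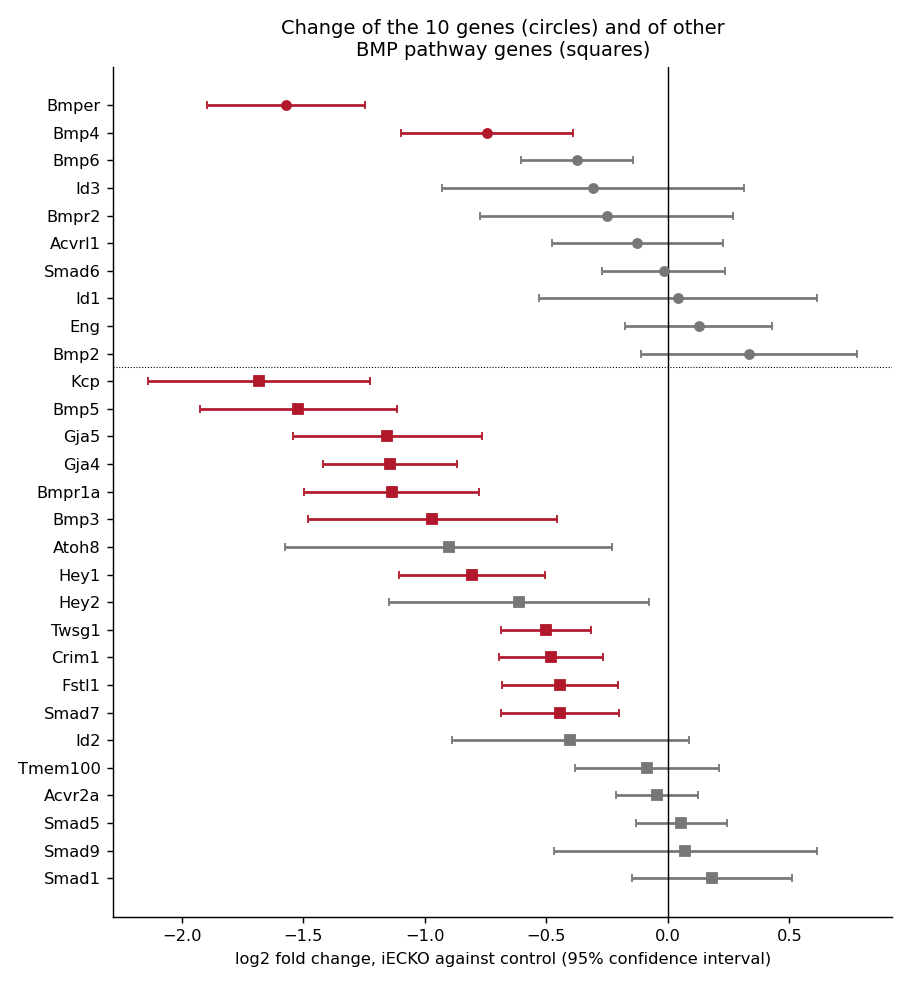
Log2 fold change of Atp6ap2 iECKO against control (horizontal axis) with its 95% CI for the 10 genes (circles, above the dotted line). Squares are pathway genes named in the text, among which *Id4* is not shown. Red marks an adjusted *P* below 0.05. *Bmper* and *Bmp4* are red among the 10, and 11 of the pathway genes are.

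Markers of other cell types moved with these results. Of 24 fibroblast markers tested, 19 fell and none rose, with a median log2 fold change of -1.50, and of 21 mural and smooth muscle markers 15 fell, with a median of -1.51. The summed fibroblast markers were 180660 to 219150 in controls and 104180 to 144750 in mutants, and the summed mural markers were 35392 to 49290 in controls and 17552 to 20649 in mutants. *Mfap4*, an abundant fibroblast marker, had a log2 fold change of -1.84, *Pdgfrb*, a mural receptor, of -1.54 and *Gucy1a1* of -1.53, while *Eln* (0.03), *Fbln2* (0.32), *Dcn* (-0.59), *Mfap5* (0.55) and *Pi16* (1.12) did not pass. Of the fibroblast markers, *Lum* was listed at 0 in 3 libraries, and no mural marker was at 0. Of 30 endothelial markers, 1 fell and none rose, with a median of 0.00 and sums of 578070 to 753550 in controls and 550360 to 661290 in mutants. The values of *Bmper* (-1.57), *Bmp5* (-1.52) and *Kcp* (-1.68) lay near the medians of the fibroblast and mural lists and below the lowest endothelial marker (-0.68). That of *Bmp4* (-0.75) lay just below this marker. Those of *Gja5* (-1.15), *Gja4* (-1.14), *Bmpr1a* (-1.14), *Bmp3* (-0.97) and *Hey1* (-0.80) were below it too. Those of *Twsg1*, *Crim1*, *Fstl1* and *Smad7* were above it. The part of fibroblast and mural RNA in the falls was not tested, and in bulk samples fewer cells of a type and less RNA per cell cannot be told apart. With libraries scaled to the endothelial markers the log2 fold change was -1.56 for *Bmper* (adjusted *P* = 0.00732) and -0.74 for *Bmp4* (adjusted *P* = 0.0571).

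The remaining lists moved less. None of 7 lymphatic, 18 leukocyte and 9 platelet and red cell markers passed. Of 18 epithelial markers 1 rose, where 474 of all 14456 genes tested rose. The summed epithelial markers were 37455, 33951 and 86257 in controls 1 to 3 and 41435 to 48738 in mutants. Control 3, the highest, also had the most *Bmp4*, and the part of epithelial RNA in that value was not tested. Of 13 immediate early genes 1 fell, and the median log2 fold change of that list was -0.38. At an unadjusted *P* below 0.05, 7 of the 13 were lower, against 12.3% of all genes tested.

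**Figure D5:**
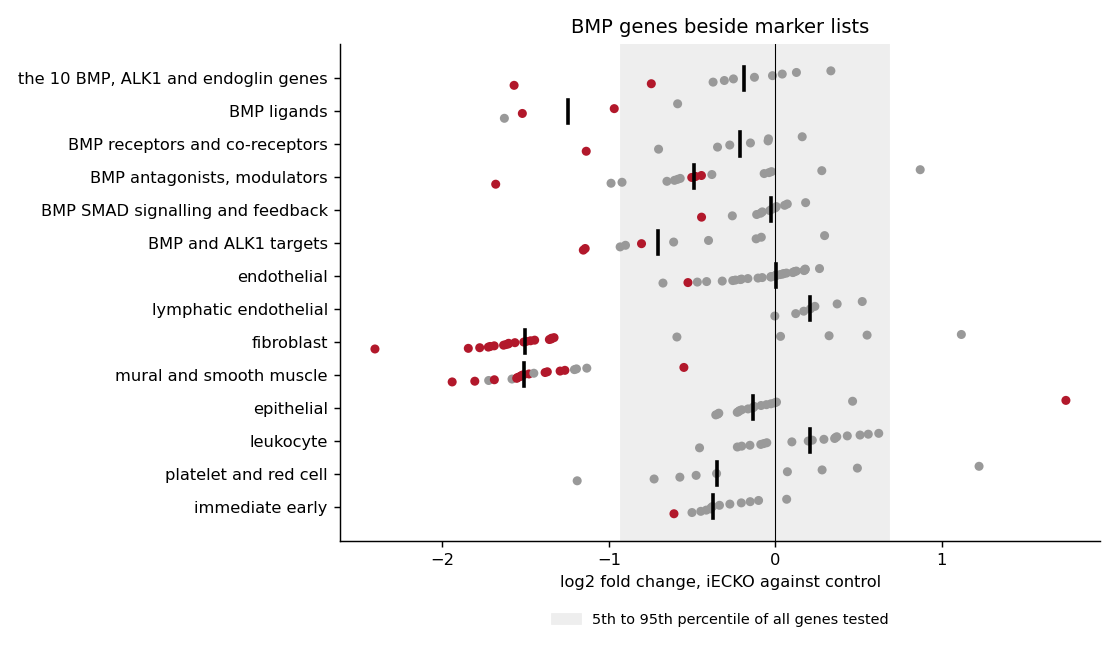
Log2 fold change of Atp6ap2 iECKO against control (horizontal axis) for each tested gene of the 10, of the pathway lists and of the marker lists (rows). Dots are genes, red past an adjusted *P* of 0.05, black bars are medians, and the grey band holds the 5th to 95th percentile of all genes tested. The 10 genes centre at -0.19, and the fibroblast and mural lists at -1.50 and -1.51.

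The genes most like *Bmper* and *Bmp4* across the 6 libraries were found by the root mean square difference of log2 values, each gene centred on its own mean. For *Bmper* they were *Trabd2b* (0.085), *Mme* (0.085), which encodes neprilysin, and *Astn2* (0.113). *Trabd2b*, whose product cleaves Wnt ligands, had normalized counts of 648, 811 and 725 in controls 1 to 3 and 255, 209 and 209 in mutants 1 to 3. For *Bmp4* they were *Tle2* (0.065), a co-repressor gene, *Maob* (0.097), which encodes monoamine oxidase B, and *Sphk1* (0.097), which encodes sphingosine kinase 1. *Tle2* had 323, 335 and 475 in controls and 244, 229 and 233 in mutants, with the same high value in control 3 as *Bmp4*. Such likeness over 6 libraries includes the difference between genotypes itself.

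By library, the falls of *Bmper* and *Bmp4* followed the same order as the remaining *Atp6ap2*. Relative to the control mean, mutants 1 to 3 had log2 ratios of -0.57, -1.43 and -1.66 for *Atp6ap2*, -1.33, -1.68 and -1.70 for *Bmper*, and -0.64, -0.75 and -0.85 for *Bmp4*. Mutant 1 was the mildest in all 3 genes. Among the pathway genes that fell, *Bmp3*, *Bmp5*, *Fstl1*, *Gja4* and *Hey1* kept this order across mutants 1 to 3. *Bmpr1a*, *Twsg1*, *Crim1*, *Kcp*, *Smad7* and *Gja5* did not. Among genes of the set that did not pass, *Acvrl1*, *Eng*, *Bmpr2* and *Smad6* kept this order, and *Bmp2*, *Bmp6*, *Id1* and *Id3* did not. Summed fibroblast markers kept it too, at 144750, 121880 and 104180 in mutants 1 to 3. So did the mural sums (20649, 18244 and 17552) and the endothelial sums (661290, 617430 and 550360). How many of all genes tested keep this order was not counted, and with 3 mutants it is a description.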

How the data were processed

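The data are RNA-Seq of P7 iLECs, 3 libraries a genotype. The authors aligned reads to mm10 and deposited 1 table of gene-level values from their differential expression tool, a normalized signal (normalized counts), although the labels say raw counts. The values are not whole, and every library has the same median ratio to the gene-wise geometric mean (1.0036), so no count model was used. The table was read as deposited, with no column left unmapped.

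A gene entered the test if 3 or more libraries held a value of 10 or more (14456 of 24972). Log2(value + 1), a scale that understates changes of low genes, was fitted with limma (version 3.58.1, R version 4.3.3), using a mean-variance trend and genotype alone, with Benjamini-Hochberg adjustment. The fit was also run on simulated data with independent noise in each gene. These hold no shift in cell composition, so they cannot check the calls against one. Single genes were also compared with an exact two-sided permutation test (smallest *P* 0.1). Confidence intervals are 95% intervals from the fit. Coordinates and merged exon lengths are from GENCODE for GRCm38, the same build as mm10, and promoters are from RefSeq. Fold changes are mutant against control.

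The 10 genes and all lists were chosen with earlier results of these data known. Named were the 10, each pathway gene past the threshold, 13 pathway genes whatever their values, the 3 genes nearest to each of the 10 that passed, and abundant markers. *Id4*, *Fst*, *Msx1*, *Runx2*, *Lum*, the fibroblast markers that did not pass and the immediate early genes were named after their values were seen. Alternatives were other scalings, filters, pseudocounts and variance models, *Xist*, the replicate number and leaving out each sample.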

Additional observations from a re-analysis of the deposited data

How the results depend on the processing

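*Bmper* passed in 17 of 18 alternative settings and *Bmp4* in 12. Counts of genes past the threshold (all genes 1193, the 10 genes 2, the wider pathway list 11) were 661, 1 and 9 when scaled to endothelial markers, 304, 1 and 4 without the mean-variance trend, and 0, 0 and 0 in the libraries high in *Xist* (limma, 4 libraries, in which 2196, 3 and 13 genes had an unadjusted *P* below 0.05). With *Xist* as a covariate all genes gave 767. Leaving out 1 sample gave 206 to 983, 1 to 3 and 5 to 15. The counts were lowest without control 3 (270, 1 and 5), mutant 2 (250, 1 and 6) or mutant 3 (206, 1 and 6), with fewer samples in each fit. With libraries scaled to the same total, 573 genes were higher and 599 lower, against 474 and 719.

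*Atp6ap2* kept a log2 fold change of -1.22 without the trend (adjusted *P* = 0.0917) and had -1.19 in the libraries high in *Xist* (adjusted *P* = 0.217). Without 1 sample it ran from -1.54 to -0.999 and passed only without mutant 1. Among the named genes, signs turned in 5. When 1 sample was left out, *Id1* ran from -0.29 (control 1) to 0.22 (control 3), *Smad6* from -0.14 to 0.0445, *Smad9* from -0.14 to 0.25 and *Tmem100* from -0.19 to 0.0509. *Smad6* was at 0.0230 with the same total, and in the libraries high in *Xist* log2 fold changes were 0.0308 for *Smad6*, -0.0199 for *Smad5* and 0.0304 for *Tmem100*. The causes were not tested.

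Samples of the 2 groups share replicate numbers, which the labels tie to no litter, batch or day. Deviations from the group means correlated by 0.252, 0.114 and 0.0782 between same-numbered samples, and control 3 correlated better with mutant 2 (0.1002). With the replicate block 1508 genes passed, 2 of the 10 and 12 of the pathway list, where *Atoh8* was added (adjusted *P* = 0.0477).

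Depth is known only relative to the shallowest library, and no counting interval is given. Of the pathway list, 17 genes were too low to test.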
